A study of Rattus norvegicus with 24 samples.

Results

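Collagens and other proteins of the extracellular matrix were followed through 6 tissues of aging male rats. The set was chosen by name: probe sets whose only gene symbol is a collagen chain, except the type II, IX, X and XI chains, or is 1 of 20 further matrix genes such as Lox, Tnc and Fn1. The set was drawn up with earlier results of these data known. It holds 43 genes of the 10411 named by a single symbol, with 61 of 15866 probe sets that are not controls. For 17 of the genes there was more than 1 probe set. A signal of at least 100 on at least 4 of the 24 arrays was reached by 58 probe sets, and 15 reached it on every array. The 3 others, of Col5a3, Col19a1 and a second probe set of Serpinh1, were not tested. The arrays held RNA of bone, kidney, liver, pituitary, hypothalamus and spleen lymphocyte of Sprague-Dawley rats of 4, 10, 18 and 24 months. Each tissue and age had 1 array with RNA pooled from 10 rats, and the same rats gave all tissues at that age. Each value is a signal, the brightness of a probe set scaled by the authors to a target of 500 on each array, so it ranks samples for 1 probe set and not 1 gene against another.

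The extracellular matrix is the scaffold that cells secrete around themselves. Fibrillar collagens are folded in the cell with the help of chaperones, trimmed outside it by proteases that clip off their ends, and then crosslinked into fibres. Small proteoglycans and glycoproteins space and bind the fibres, basement membranes of type IV collagen, laminin and nidogen carry epithelia and vessels, and metalloproteases cut the matrix down again. In bone, type I collagen made by osteoblasts is the organic frame on which mineral is laid down.

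Stretches before a transcript start are shown for some genes with wide differences in the comparisons below and for 2 that share a start region. Other genes with wide differences, such as Col1a2, are not printed. Of the 43 genes, 30 had a row by symbol in the RefSeq promoter table of build GRCr8. The 250 bases before the transcript start that the table uses were searched on both strands for GGGCGG (the GC box), CCAAT and TATAA, which are printed in capitals where they occur in either orientation. Lum, Pcolce, Serpinh1 and Tnc lie at chr7:34245456-34245705 (plus strand), chr12:24720722-24720971 (plus), chr1:163062977-163063226 (minus) and chr5:82476132-82476381 (minus). Other transcripts of 3 of them start further out, so that 250 bases of the stretch of Lum, 201 of that of Serpinh1 and 66 of that of Tnc lie within the outer bounds of the gene. Col4a1 and Col4a2, the 2 common chains of type IV collagen, start head to head, and the 76 bases between their starts at chr16:84885521-84885596 are printed on the strand of Col4a1.
Lum: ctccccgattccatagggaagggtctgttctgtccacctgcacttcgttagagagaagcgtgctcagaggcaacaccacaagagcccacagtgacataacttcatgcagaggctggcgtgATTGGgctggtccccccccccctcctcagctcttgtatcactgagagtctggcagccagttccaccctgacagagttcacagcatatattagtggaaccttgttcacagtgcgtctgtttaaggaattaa
Pcolce: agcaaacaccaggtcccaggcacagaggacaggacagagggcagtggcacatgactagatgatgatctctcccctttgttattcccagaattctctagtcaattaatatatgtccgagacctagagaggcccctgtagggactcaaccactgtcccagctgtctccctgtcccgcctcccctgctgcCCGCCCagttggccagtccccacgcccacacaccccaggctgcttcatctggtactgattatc
Serpinh1: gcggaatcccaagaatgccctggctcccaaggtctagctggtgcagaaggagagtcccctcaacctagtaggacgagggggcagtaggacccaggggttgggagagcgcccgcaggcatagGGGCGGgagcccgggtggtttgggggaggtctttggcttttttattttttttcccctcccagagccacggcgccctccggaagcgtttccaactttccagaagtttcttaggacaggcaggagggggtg
Tnc: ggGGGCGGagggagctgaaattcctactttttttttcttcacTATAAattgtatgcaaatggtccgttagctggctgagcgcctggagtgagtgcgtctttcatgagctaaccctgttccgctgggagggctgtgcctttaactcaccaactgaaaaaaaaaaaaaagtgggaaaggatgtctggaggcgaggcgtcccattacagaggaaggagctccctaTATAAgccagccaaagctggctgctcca
Col4a1 and Col4a2: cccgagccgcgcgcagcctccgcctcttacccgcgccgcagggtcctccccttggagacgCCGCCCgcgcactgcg
A GC box stood in 19 of the 30 promoters (63.3%), against 32.4% of all 27457 promoters in the table. CCAAT was found in 7 (23.3%, against 34.3%) and TATAA in 5 (16.7%, against 24.1%). These letter matches are a description and were not tied to the signals.

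The labelled tissues carried their defining markers. The summed signal of the pituitary hormone genes, T and B cell markers, hepatocyte markers, kidney tubule markers, neuron markers and osteoblast and osteocyte markers was higher on all 4 arrays of its own tissue than on any array of the others, with 16006 to 61958 for the last in bone against at most 11392 elsewhere. No source used here says which bones or parts of a bone were taken, and the bone arrays also carried markers of blood-forming cells, cartilage and muscle. Array medians ran from 213 to 309. The 18-month bone array stood apart: its dimmest probe sets were brighter, with 5% of them below 33.5, where the other arrays had this point between 9.1 and 15.7. The log2 ratio of the 3 prime to the 5 prime probe set of Actb, which is higher in degraded RNA, was 1.56, 0.48, 1.12 and 1.31 in bone at 4, 10, 18 and 24 months. With 1 array for each tissue and age, the p-values below measure only the spread between these arrays. In tissue RNA, fewer cells of a type and less RNA per cell cannot be told apart.

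Most matrix probe sets were higher in bone than in the mean of the other tissues. Set against the mean of the other five tissues in a limma fit with tissue and age as factors, 39 of the 58 probe sets were higher in bone and 5 were lower at an adjusted p under 0.05, while 24.6% of all 14031 probe sets tested were called higher in bone and 25.2% lower. Their median log2 difference was 1.32, against -0.02 over all probe sets. For 14 probe sets of 10 genes, among them both chains of type I collagen, Col5a1, Col5a2, Lum, Sparc, Tnc and Mmp2, the 4 bone arrays lay above all 20 arrays of the other tissues, a pattern that 4.19% of all probe sets showed. Without the 4-month bone array, 34 probe sets were still called higher.

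Spleen lymphocyte was the opposite, with 1 probe set higher and 42 lower, against 27% higher and 32% lower of all probe sets, and a median of -1.09. Kidney had 20 higher and 9 lower (19.8% and 30.9% of all), and liver 11 and 24 (19.6% and 38.4%). Pituitary had 11 and 11 (28.8% and 20.4%), and hypothalamus 4 and 19 (24.8% and 29.2%). Outside bone, the share of matrix probe sets called higher thus exceeded that of all probe sets in kidney alone; the difference between these shares was not tested.

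**Figure D1:**
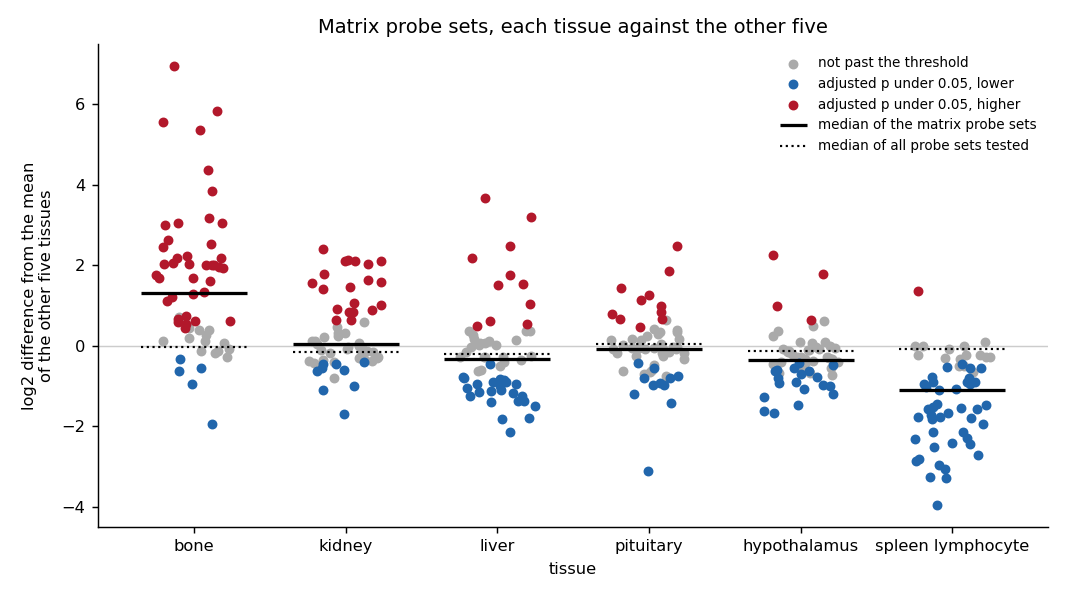
Log2 difference of each of the 58 matrix probe sets tested from the mean of the other five tissues (vertical axis), for 6 tissues along the horizontal axis; each point is a probe set, solid bars are the medians of the matrix probe sets and dotted bars those of all probe sets tested. The bone points reach 6.95 with a median of 1.32, and those of spleen lymphocyte reach down to -3.95 with a median of -1.09.

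In bone, most matrix genes were lower at the later ages than at 4 months. Comparing the mean of 10, 18 and 24 months with 4 months within each tissue in limma, 35 of 58 probe sets were lower in bone and 1 was higher, where 3.94% of all probe sets were lower and 2.46% higher. The median was -1.53 for the matrix probe sets and 0.04 over all. Since the members were chosen with earlier results of these data known, their excess over all probe sets is a description and no test. On the 10-month array alone, 35 of the 53 probe sets at 100 or more on both arrays were at least 2-fold below the 4-month array, against 5.63% of all probe sets. The later steps were smaller and not all in 1 direction. From 10 to 18 months, 1 of 50 was at least 2-fold lower and 4 were as much higher (1.89% and 7.83% of all probe sets), and from 18 to 24 months 4 of 49 were lower (6.29%), both steps involving the 18-month array that stood apart. Between 10 and 24 months, a comparison chosen after the data were seen that leaves the 4-month array out, 9 of 51 were at least 2-fold lower at 24 months and 0 were as much higher, with 0.767% of all probe sets lower and a median of -0.55 against 0.01. The signal was lower at each later age than at the one before for 23 of 48 probe sets at 100 or more on all 4 bone arrays, a course taken by 5.36% of all such probe sets and also looked for after the data were seen.

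The comparison with 4 months in bone rests on 1 array. Its spread was assumed to be that of the later arrays of all tissues together, not of bone alone. Age, the pool of rats and the array cannot be told apart. Array weights were taken from the fit with tissue and age as factors, not from this comparison. The 4-month and 18-month bone arrays had weights of 0.343 and 0.294 there, against 2.59 and 1.38 for those of 10 and 24 months. That fit holds no age difference particular to bone. Such a difference lowers the weights, so they do not judge the 4-month array apart from it.

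**Figure D2:**
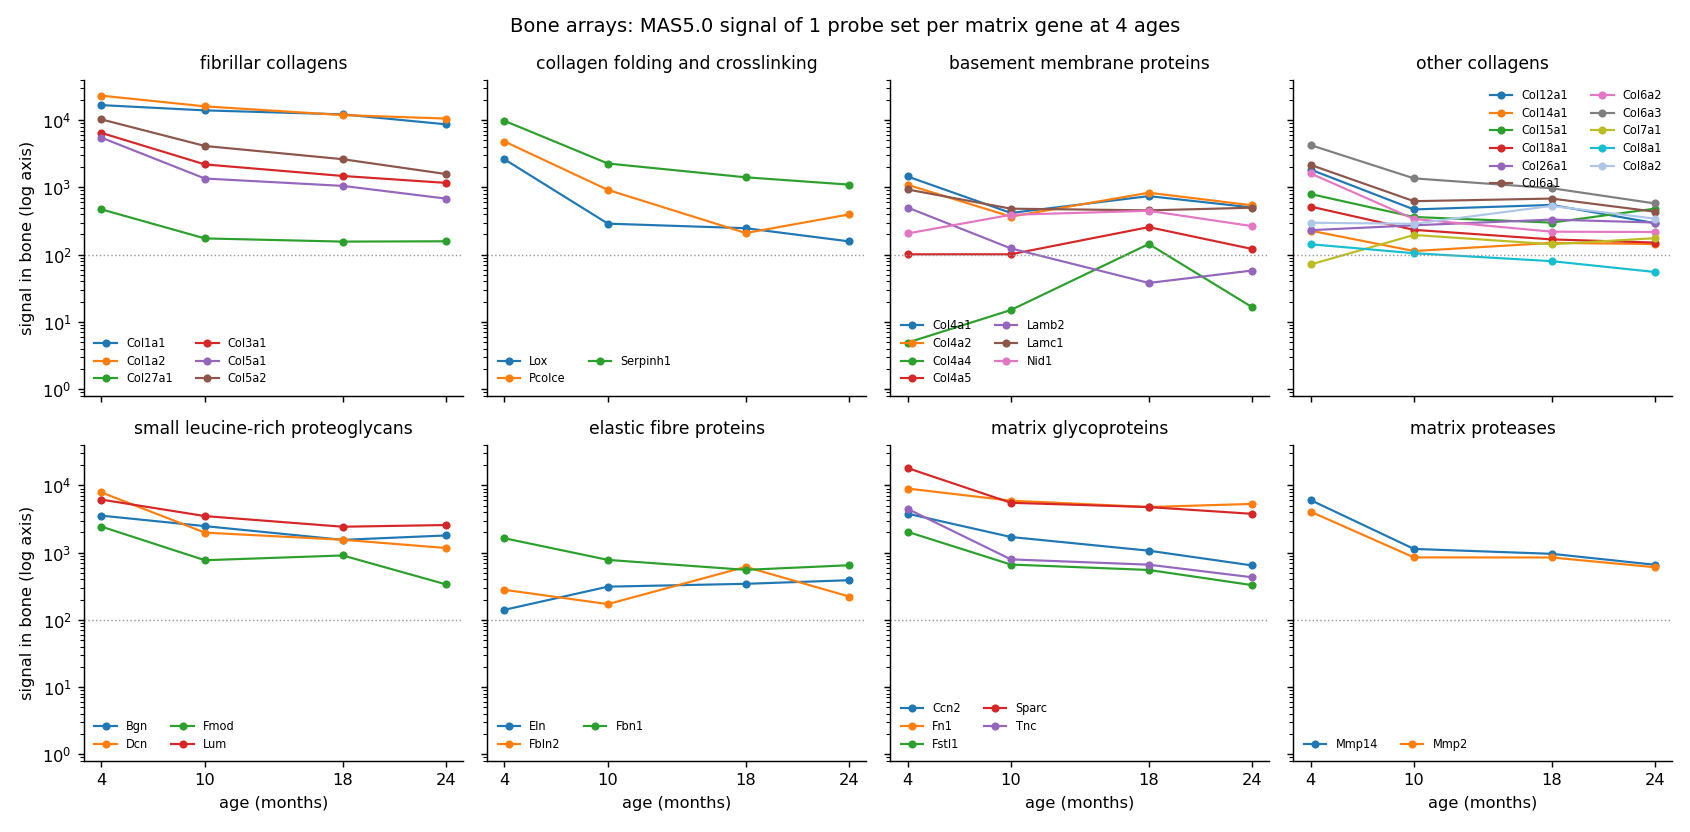
Signal on the bone arrays (vertical axis, log scale) against age in months for 1 probe set of each matrix gene tested, in 8 panels by role; each point is 1 array of RNA pooled from 10 rats and the dotted line marks a signal of 100. Lox, in the panel of collagen folding and crosslinking, goes through 2617, 289, 247 and 157, while Col1a1 goes through 16758, 13995, 12213 and 8682 and Eln through 141, 312, 344 and 389.

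Fibrillar collagens build the tensile fibres of bone, skin and tendon. Of 6 genes tested by their leading probe set, 5 were higher in bone than the mean of the other tissues, and 4 were lower in bone at later ages. Beside this and the role classes below, 24.6% of all probe sets were higher in bone and 25.2% lower. At later ages in bone, 3.94% of all were lower and 2.46% higher. Col1a1, the main chain of type I collagen, had bone signals of 16758, 13995, 12213 and 8682 at 4, 10, 18 and 24 months, against 138 to 433 with a median of 271 on the 20 arrays of the other tissues. The bone arrays were far above all others and fell at each step, and the difference between tissues was 47.1-fold (log2 5.56 ± 0.14 SE, adjusted p = 1.8e-16). The difference of later ages from 4 months, -0.56 ± 0.31, did not pass (adjusted p = 0.393), nor did that of its second probe set, -0.78 (adjusted p = 0.151).

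Col1a2, its partner chain, had 23177, 16067, 11914 and 10577 in bone and 22.4 to 708 (median 450.1) elsewhere, a 41.5-fold difference of the mean log2 signals, in which 3 of the 20 arrays below 100 were entered at 100. With age it was at -0.87 ± 0.25, at the edge of the threshold (adjusted p = 0.05, called), and its second probe set at -0.90 was not called (adjusted p = 0.107). Both chains thus kept a very high bone signal at 24 months, and the call for Col1a2 was lost under 7 of the alternative settings, among them without the 18-month or the 24-month bone array (adjusted p = 0.0885 and 0.13).

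The minor fibrillar chains moved further. Col5a1, a type V chain that helps to start fibres, had 5494, 1356, 1054 and 681 in bone on its leading probe set, all above the 137 to 337 elsewhere. It was lower at later ages (log2 -2.47 ± 0.46, adjusted p = 0.00276). On its second probe set the tissues overlapped, with 1491.5, 270.9, 347 and 154.8 in bone and 10.6 to 277.1 elsewhere. Col5a2, the other common type V chain, had 10272, 4137, 2629 and 1580, with a difference from the other tissues of 3.84 ± 0.27 (adjusted p = 2.14e-10) and from 4 months of -1.99 ± 0.47 (adjusted p = 0.0152). Col3a1, the chain of type III collagen of soft and young connective tissue, had 6465, 2198, 1479.8 and 1167 in bone. These overlapped with liver, whose 4 arrays had 3007, 1645, 1125 and 1423, and the bone difference with age was -2.05 ± 0.35 (adjusted p = 0.00129). Col27a1 was at 471, 174, 156 and 158 in bone, which was not past the threshold with age (adjusted p = 0.0873) or against other tissues (adjusted p = 0.771).

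The helpers that fold, trim and crosslink collagen had the widest differences with age. All 3 genes of this group were higher in bone than the mean of the other tissues and lower in bone at later ages. Lox, the enzyme that crosslinks collagen and elastin, had 2617, 289, 247 and 157 in bone, against 94.6 to 472 (median 139.7) elsewhere. Its 4-month bone signal stood alone, and the 3 later bone arrays lay within the range of the other tissues. Liver, at 472, 390, 330 and 246, was above bone for Lox from 10 months on. The difference of Lox with age in bone was -3.55 ± 0.33 (11.7-fold, adjusted p = 5.39e-06). Its second probe set was at -3.27 (adjusted p = 9.67e-07), a bound since 2 later arrays were below 100.

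Pcolce, which speeds up the trimming of procollagen ends, had 4819.8, 918, 209.5 and 397 in bone. It was lower at later ages (-3.51 ± 0.48, 11.4-fold, adjusted p = 0.000244), and pituitary, with 2183, 756, 884 and 758, was the only other tissue above 326.4. Serpinh1, the collagen chaperone of the endoplasmic reticulum, had 9783, 2268, 1413 and 1099.9 in bone, against 19.6 to 1526 (median 606.5) elsewhere. It was lower at each later age (-2.68 ± 0.37, adjusted p = 0.000244). The promoters of Pcolce and Serpinh1 printed above each hold 1 GC box and neither of the other motifs.

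Small leucine-rich proteoglycans coat collagen fibres and set their width. All 4 were higher in bone than the mean of the other tissues, and 3 were lower in bone at later ages. Lum (lumican) had 6156, 3499.6, 2429.9 and 2576 in bone, against 23.9 to 532 (median 160.3) elsewhere, with no overlap and a difference of 4.36 ± 0.18, or 20.6-fold with 6 of the 20 arrays entered at 100 (adjusted p = 8.11e-14). Its difference with age was smaller, -1.14 ± 0.31 (adjusted p = 0.0358), and was lost under 7 alternatives, without the 18-month or the 24-month array among them (adjusted p = 0.0788 and 0.0846). Dcn (decorin) had 7872, 1986, 1556 and 1171 in bone, a difference with age of -2.36 ± 0.38 (adjusted p = 0.00103). Kidney, at 1787, 2309, 4037 and 2424, was above bone for Dcn from 10 months on. Fmod (fibromodulin) had 2438.5, 771, 908 and 337 in bone (-1.98 ± 0.38, adjusted p = 0.00332), and Bgn (biglycan) had 3551, 2482, 1550 and 1802 (-0.9 ± 0.44, adjusted p = 0.306).

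All 5 matrix glycoproteins were higher in bone than the mean of the other tissues, and 4 were lower in bone at later ages. Tnc (tenascin C), a glycoprotein of growing and healing tissue, had 4482, 794, 662 and 429.9 in bone, against 13.6 to 239 (median 74) elsewhere, where 12 of 20 arrays were below 100. The bone arrays stood above all others (8.27-fold on mean log2 signals with those 12 entered at 100, adjusted p = 8.46e-08), and the difference with age was -2.88 ± 0.36 (adjusted p = 9.95e-05). Sparc (osteonectin), a collagen-binding protein abundant in bone, had 18146, 5518, 4764 and 3780.2 on its leading probe set, against 80 to 3601.6 (median 680.4) elsewhere. Hypothalamus had the next highest signals there, 3574, 2794, 3602 and 2616. On the second probe set the tissues overlapped, with 16067, 6749, 4281 and 3047 in bone and up to 8206 in hypothalamus. The probe sets of Sparc were at -1.97 and -1.85 with age (adjusted p = 0.0345 and 0.00348), and the first was lost without the 18-month or the 24-month array (adjusted p = 0.0583 and 0.0884).

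Ccn2, a growth factor-like protein that binds to matrix, fell at every step in bone (3802, 1709, 1069.6 and 645; -1.85 ± 0.39, adjusted p = 0.00762). Kidney, at 1998, 1473, 1285 and 1489, was above bone for Ccn2 at 18 and 24 months. Fstl1, a secreted protein related to Sparc, had 2041, 665, 553 and 329 (-2.05 ± 0.38, adjusted p = 0.00295), with its 2 further probe sets at -2.37 and -1.94. Fn1 (fibronectin) had 8994, 5936, 4772 and 5310.5, and its -0.76 ± 0.33 did not pass (adjusted p = 0.224). The liver arrays, at 10236 to 12179, all lay above bone for Fn1. Mmp14, a metalloprotease anchored in the cell membrane that cuts collagen, had 6059, 1136, 960.4 and 659 in bone and was lower at later ages (-2.76 ± 0.39, adjusted p = 0.000337). Liver, at 1002, 1203, 1222 and 1106, was above bone for Mmp14 from 10 months on. Mmp2, the gelatinase that Mmp14 switches on, had 4074, 849.7, 847 and 606 on its leading probe set (-2.43 ± 0.24, adjusted p = 9.51e-06). Its second probe set had 191, 299, 442 and 299 and went the other way without passing (0.84 ± 0.37, adjusted p = 0.232), so the 2 disagree.

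Basement membrane genes were divided. Of 7 genes, 1 was higher and 1 lower in bone than the mean of the other tissues (24.6% and 25.2% of all probe sets). At later ages 3 were lower in bone (3.94% of all). Col4a1 had 1455, 417, 742 and 503 in bone, a difference with age of -1.44 ± 0.29 (adjusted p = 0.00517), with its second probe set at -1.2 (adjusted p = 0.0737), while kidney, at 1666, 1727, 1638.5 and 1521, was higher at every age. Its small excess in bone over the other tissues (0.61) was not called without the 4-month array (0.23, adjusted p = 0.258). Col4a2, which starts 76 bases away on the other strand, had 1095, 368, 833 and 541 in bone, where its -1.0 ± 0.59 did not pass (adjusted p = 0.429). Both were higher in kidney (2.11 and 1.06, adjusted p = 2.26e-08 and 0.00163) and lower in spleen lymphocyte (-1.82 and -1.57). Col4a5, of the network in kidney filters, was lower in bone, with 101, 101, 256.5 and 121 against 82.9 to 1744 (median 601.7) elsewhere (-1.95 ± 0.2, adjusted p = 8.7e-08).

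Lamb2, a laminin chain, had 502, 124, 37.9 and 58 in bone, 4.68-fold lower on mean log2 signals at later ages with the last 2 entered at 100 (adjusted p = 0.000432). Lamc1, another laminin chain, was lower too (-0.96 ± 0.22, adjusted p = 0.0119). The probe sets of Nid1, which links laminin to type IV collagen, disagreed: 1 had 2253, 791, 586 and 530.4 in bone (-1.85, adjusted p = 0.00077), and the other had 206, 391, 448.5 and 265 (0.8, adjusted p = 0.144). Across tissues they also differed, the first being highest in kidney, at 2106 to 2737, and the second in spleen lymphocyte, at 517 to 635. Col4a4 reached 100 in bone only on the 18-month array.

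Among the 11 other collagens, 5 were higher and 2 lower in bone than the mean of the other tissues (24.6% and 25.2% of all probe sets). At later ages 6 were lower in bone (3.94%). The 3 type VI chains, which form beaded filaments around cells, were among the 6. Col6a3 had 4265, 1363, 972 and 577 in bone (-2.22 ± 0.37, adjusted p = 0.00122), Col6a2 had 1613, 339, 219 and 217 (-2.67 ± 0.34, adjusted p = 0.000127) with a second probe set not past the threshold (-0.73, adjusted p = 0.372), and Col6a1 was at -1.93 ± 0.34 (adjusted p = 0.00169). Col12a1, a chain that binds to the surface of fibres, had 1842, 470.2, 549 and 294 (-2.12 ± 0.34, adjusted p = 0.0009). Col18a1, the source of endostatin, was lower in bone than the mean of the other tissues on both probe sets (-0.54 and -0.94) and lower again with age (-1.52, adjusted p = 0.00808). On the leading one bone had 151 to 519, while hypothalamus had 109 to 151 and spleen lymphocyte 24 to 166. Pituitary had 354 to 432, kidney 371 to 631 and liver 1183 to 1497.5. Col14a1 was lower in bone than that mean on both (-0.63 and -0.34), the first not called without the 10-month array (-0.46, adjusted p = 0.104). Its leading probe set had 113 to 227.5 in bone, within the 79.2 to 242 of all arrays outside liver. The probe sets of Col14a1 differed in sign with age (-0.76 and 0.14), neither past the threshold. Col7a1, Col8a1, Col8a2 and Col26a1 were between -0.49 and 0.77 with age, none past it.

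Elastic fibre genes went 3 ways. Fbn1, of the microfibrils, had 1637, 780.1, 555 and 649.5 in bone, above all other arrays, and was lower at later ages (-1.32 ± 0.26, adjusted p = 0.00441), with the second probe set at -0.92 (adjusted p = 0.167). Eln (elastin) had 141, 312, 344 and 389 in bone and was the 1 matrix probe set called higher (1.3 ± 0.32, adjusted p = 0.0189). On the other tissues it ran from 226 to 549, so it was the 4-month bone array that was low, and the call was lost under 5 alternatives, without the 24-month array among them (adjusted p = 0.0549). Fbln2 had 279.7, 171.5, 615 and 222, its high value being on the 18-month array (0.03 ± 0.55).

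**Figure D3:**
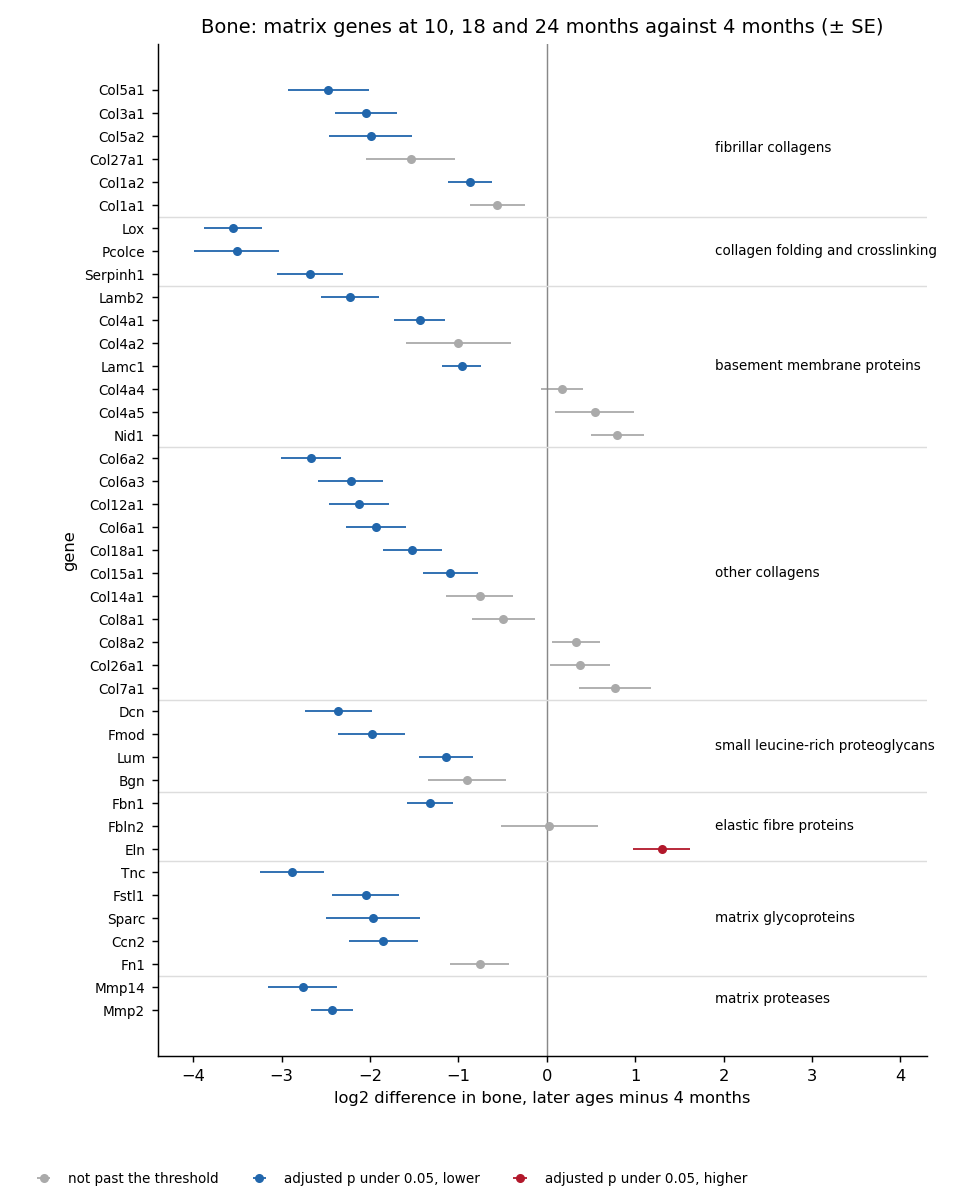
Log2 difference in bone between the mean of 10, 18 and 24 months and 4 months (horizontal axis, bars are 1 SE of the limma fit) for 1 probe set of each matrix gene tested, grouped by role down the page. Lox is lowest at -3.55 and Eln, the gene called higher, is at 1.3, with the type I chains Col1a1 and Col1a2 at -0.56 and -0.87.

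The difference between bone and the other tissues was itself tested. For 27 of 58 probe sets the difference from 4 months was lower in bone than in the mean of the other five tissues, and for 1, Eln, it was higher (3.03% and 1.62% of all probe sets), with a median of -1.31 against 0.05. Lox was at -3.36 ± 0.36 in this contrast (adjusted p = 2.81e-05), since the other tissues averaged -0.18, and Mmp14 at -3.27 ± 0.43 (adjusted p = 0.00024), since they averaged 0.51. Col3a1 was not among the 27 (-1.12 ± 0.38, adjusted p = 0.114). Its signal at 4 months was the highest of the 4 ages in hypothalamus (618.5, 349, 361.5 and 300), pituitary (980.5, 279, 375 and 364), liver and kidney (1534, 683, 1107 and 863), and not in spleen lymphocyte (198, 139.5, 209.5 and 149.8). In the fit over all 6 tissues with age as a factor, Col3a1 differed by -1.21 ± 0.22 between 24 and 4 months, which did not pass (adjusted p = 0.0713), with bone among the tissues.

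In the other five tissues, 0 of 58 matrix probe sets passed at later ages against 4 months in limma. The share of all probe sets called was small too, at 0.378% in hypothalamus, 0.0499% in pituitary, 0.527% in spleen lymphocyte, 0.278% in liver and 0.0499% in kidney. At an unadjusted p under 0.05, 3 were lower and 4 higher in hypothalamus, 8 and 0 in pituitary, 3 and 1 in spleen lymphocyte, 5 and 0 in liver, and 7 and 1 in kidney. Over all probe sets, those shares were 4.41% lower and 4.15% higher in hypothalamus, 2.18% and 2.15% in pituitary, 4.74% and 5.12% in spleen lymphocyte, 2.67% and 3.88% in liver, and 1.75% and 1.71% in kidney. Mmp14 was nearest to the threshold, with 119.6, 347, 654 and 318 in hypothalamus (1.8 ± 0.39, adjusted p = 0.0638). Next came a probe set of Sparc there, with 8206, 3068, 2508 and 2684 (-1.58 ± 0.35, adjusted p = 0.0688), while the leading probe set, at 3574, 2794, 3602 and 2616, differed by -0.26. Over all 6 tissues, 0 members were called between 24 and 4 months and 0 between 10 and 4 months (0.0143% of all probe sets in each), with 17 and 11 lower at an unadjusted p under 0.05 (2.42% and 2.17% of all probe sets) and 0 higher in either (3.26% and 2.45%).

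**Figure D4:**
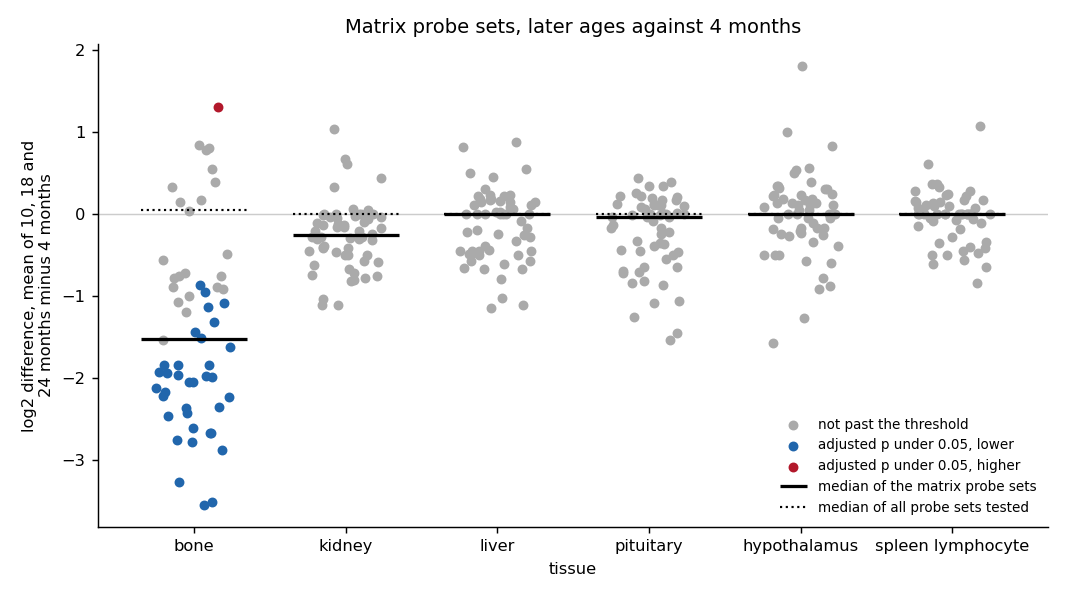
Log2 difference between the mean of 10, 18 and 24 months and 4 months (vertical axis) of each of the 58 matrix probe sets tested, for 6 tissues along the horizontal axis; solid bars are the medians of the matrix probe sets and dotted bars those of all probe sets tested. The bone points have a median of -1.53, and the medians of the other tissues lie between -0.26 in kidney and 0.

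Bone had the highest signal of the 6 tissues for 39 of 58 matrix probe sets at 4 months (14.3% of all probe sets), for 30 of 57 at 10 months (15.4%), for 29 of 58 at 18 months (23.8%) and for 18 of 57 at 24 months (16.3%). Bone kept the top signal at all 4 ages for 16 probe sets (5.82% of all), of Col1a1, Col1a2, Col5a1, Col5a2, Col6a1, Col8a2, Fbn1, Lum, Mmp2, Sparc and Tnc.

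Some matrix genes were higher in a tissue other than bone. Liver was above every other array for Fn1, which hepatocytes release into plasma, with 10236, 10358, 10612 and 12179, against 237 to 8994 (median 1129) elsewhere (3.2 ± 0.16, adjusted p = 4.22e-13). It was also above all others for both probe sets of Col18a1, with 1306.5, 1473, 1183 and 1497.5 on the leading one (2.49 ± 0.21), and of Col14a1, with 994, 758, 593 and 836 (2.19 ± 0.2). Kidney stood above all others for Col4a4 and the leading probe set of Col4a1, and was higher for Ccn2 (2.14 ± 0.25), Dcn (2.1 ± 0.32) and Lamb2 (1.64 ± 0.26). The second probe set of Col4a1 ran from 874.9 to 1365.3 in kidney and overlapped with bone, which reached 1138.6. Of the 7 basement membrane genes, 6 were called higher in kidney (19.8% of all probe sets). Pituitary was higher for Pcolce (2.48 ± 0.41), Col4a5 (1.86 ± 0.2) and Dcn (1.43 ± 0.32), and lower for Fn1 (-3.12 ± 0.16), which had 284, 237, 261 and 356 there. Spleen lymphocyte was lower for the second probe set of Sparc (-3.95 ± 0.21) and for Dcn (-3.28 ± 0.32). Both are bounds, since signals there of 7.1 to 28.7 and of 21.2 to 162.1 were entered at 100 where lower. The leading probe set of Sparc had 80 to 417.9 there, against 383 to 18145.7 elsewhere. The 1 probe set higher in spleen lymphocyte was the leading one of Nid1 (1.37 ± 0.19). The other of Nid1 had 7 to 72.7 there, below the 398.5 to 2737 elsewhere.

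Some genes that work on the matrix but are not in the set were also lower in bone at later ages, and most members of these lists other than the first did not pass. Over all probe sets, 3.94% were lower and 2.46% higher in this comparison. Of 15 collagen modifying enzymes, 8 were lower at later ages and 0 higher, among them Fkbp10, a collagen chaperone, with 2651, 656, 446 and 353 (-2.5 ± 0.38, adjusted p = 0.000509), and Plod2, which prepares crosslinks, with 4725, 1555, 1119 and 723 (-2.13 ± 0.33, adjusted p = 0.000648). Of 17 other proteases and inhibitors, 7 were lower, led by the inhibitor Timp1 (-3.38 ± 0.35, adjusted p = 1.89e-05) and the membrane metalloprotease Mmp16 (-2.24 ± 0.38, adjusted p = 0.00131). The neutrophil collagenase Mmp8, which is also in the neutrophil list, was higher, with 747, 3424, 2642 and 3662 (2.1 ± 0.31, adjusted p = 0.000443). Among 15 matrix receptors 3 were lower, led by the syndecans Sdc2 (-2.77 ± 0.27) and Sdc1 (-1.44 ± 0.23). Among 11 genes of TGF-beta signalling 4 were lower, led by the ligand Tgfb3 (-2.15 ± 0.26) and Thbs4 (-1.89 ± 0.3), a thrombospondin of the matrix and not a ligand of this family. Among 9 other laminins and basement membrane genes 4 were lower, led by Lama4 (-1.99 ± 0.19) and Lamb1 (-1.92 ± 0.3), and 0 were higher in these last 3 lists.

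Markers of several cell types moved on the same bone arrays, where 3.94% of all probe sets were lower and 2.46% higher at later ages. Summed over the genes on the array, cartilage markers had signals of 38355, 9190, 4133 and 2020 at 4, 10, 18 and 24 months, and 8 of 9 tested were lower at later ages, led by Col10a1 (-3.95 ± 0.77) and Hapln1 (-3.68 ± 0.5). Osteoblast and osteocyte markers had 61958, 30089, 20565 and 16006, with 5 of 8 lower, and osteoclast markers 31225, 14174, 7765 and 7543, with 2 of 3 lower. Erythroid markers went the other way, with 46544, 69071, 69704 and 81674 and 5 of 8 higher. Neutrophil markers did too, with 50280, 98176, 107825 and 142949 and 2 of 7 higher, and so did skeletal muscle markers, with 4846, 10622, 10741 and 8072 and 6 of 9 higher. Endothelial markers had 4394, 2834, 2989 and 3044, with 2 of 8 lower. The part of these markers' cells in the matrix result was not tested.

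**Figure D5:**
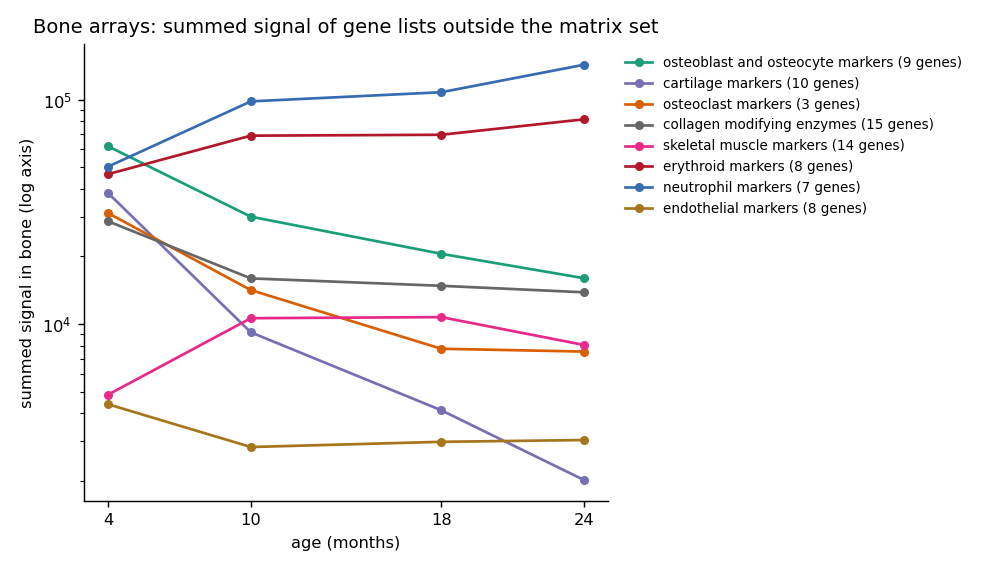
Summed signal on the bone arrays (vertical axis, log scale) against age in months for 8 gene lists outside the matrix set, with the number of genes on the array in the legend; each point is 1 array. Cartilage markers go through 38355, 9190, 4133 and 2020, while neutrophil markers go through 50280, 98176, 107825 and 142949.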

How the data were processed

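RNA of 6 tissues at 4 ages was hybridised to 24 Affymetrix RAE230A arrays, 1 per tissue and age, with RNA of 10 rats pooled in each; adrenal gland is not analysed here. The authors computed linear intensities with MAS5.0 (release not named in the sources used here) and scaled them to a target of 500, and the deposited intensities were used without further normalization. Probe sets were named through the platform annotation: 12783 carried 1 symbol, 312 several and 2771 none, beside 57 controls, which were left out. The fits used log2 signals with a floor of 100 for the 14031 probe sets at 100 or more on at least 4 arrays, so a value that rests on lower signals is a bound. R 4.3.3 with limma 3.58.1 gave tissue contrasts (tissue and age as factors, 15 residual degrees of freedom), later ages against 4 months within tissues (12), and ages over tissues, with Benjamini-Hochberg adjustment over all probe sets at 0.05. Steps were tested on simulated data. The number of arrays limits the precision.

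The members and lists were chosen with earlier results of these data known. Genes given in full are the 2 with the largest difference in each role class and comparison, those called against their class and those whose probe sets disagree; of the other lists, the 2 largest changes in each direction. Other members, chosen after their values were seen, are Col5a2, Col27a1, Col7a1, Col8a1, Col8a2, Col26a1, Col4a2, Lamc1, Col6a1, Col18a1, Col4a4, Ccn2 and Fn1. A gene is given by the probe set at 100 on the most arrays, then the highest mean. Alternatives were other floors, filters, normalizations, spreads and probe set rules, array weights, and leaving out bone arrays.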

Additional observations from a re-analysis of the deposited data

Results flagged for a closer look

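For 17 of the genes named, the difference of later ages from 4 months was not the same in bone as in the mean of the other five tissues, by the test of that difference in limma. It was lower in bone, on the log2 scale with its SE, for Pcolce (-3.4 ± 0.53), Lox (-3.36 ± 0.36), Mmp14 (-3.27 ± 0.43), Tnc (-2.78 ± 0.39), Dcn (-2.64 ± 0.42), Col6a2 (-2.57 ± 0.37), Serpinh1 (-2.52 ± 0.41), Col5a1 (-2.24 ± 0.5). It was lower too for Col12a1 (-2.22 ± 0.37), Lamb2 (-2.21 ± 0.36), Mmp2 (-2.21 ± 0.26), Fstl1 (-2.15 ± 0.42), Col6a3 (-2.15 ± 0.41), Fmod (-2 ± 0.41), Col4a1 (-1.54 ± 0.32) and Fbn1 (-1.06 ± 0.28). For Eln it was higher (1.31 ± 0.35), with bone at 1.3 and the others at a mean of -0.02. Adjusted p-values ran from 2.81e-05 for Lox to 0.0422 for Fbn1. In the other five tissues the means for these genes lay between -0.26 (Fbn1) and 0.51 (Mmp14). All rest on the same 4-month bone array.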

How the results depend on the processing

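With all arrays kept, the count of matrix probe sets higher in bone (39 of 58) ran from 26 with 1 probe set per gene to 39 under the other settings. That of those lower in bone at later ages (35) ran from 26 to 40, and that of the difference from the other tissues (27) from 19 to 32. With 1 probe set per gene at most 43 could be tested, and filters also change the number. These counts are thus not all out of 58. Leaving out each bone array in turn gave 34 to 40, 32 to 34 and 24 to 31. The 152 calls in the other five tissues against the remaining ones ran from 116 to 175, and the 35 that were 2-fold lower at 10 months from 24 to 36. Calls at later ages in the other five tissues, 0 in all, became 1 with a floor of 200, with no filter and with quantile normalization, 2 with array weights, and 0 to 1 with a bone array left out. Those between 24 and 4 months over the tissues became 1 with a filter on 12 arrays, 1 with an intensity trend and 2 with array weights and were 0 with any bone array left out; the calls between 10 and 4 months were 0 throughout. The cause of these differences was not tested.

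Among single genes with no call in the comparison, Lamb2 in bone against the other tissues (-0.09) was at 0.07 with a floor of 200, 0.12 with log2(signal + 50), with or without a filter, and -0.65 to 0.12 with a bone array left out, being called lower without that of 4 months. Fbln2 was at -0.02 with age after centring on the median and -0.34 with array weights, and at -0.52 to 0.4 with a bone array left out (lowest without that of 18 months); against the other tissues (0.2) it was at -0.2 with array weights and -0.19 to 0.45 with a bone array left out (lowest without that of 18 months). Eln against the other tissues (-0.14) was at 0.1 with array weights and -0.27 to 0.19 with a bone array left out (highest without that of 4 months). Calls with age in bone were lost in some settings for Col1a2, Lum, Fbn1, Sparc and Eln, with adjusted p of up to 0.198, 0.106, 0.0874, 0.0884 and 0.133. The call of Col4a1 in bone against the other tissues was lost with array weights (0.19) and without the 4-month array (0.23). The tissue contrasts hold age, and with it the rats shared by the tissues, as a factor, and with tissue alone 38 were higher in bone. No paired analysis was possible because each tissue and age has 1 array, for the comparisons of ages, whose pools are different rats.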
